A study of Mus musculus with 2 samples.

Results

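The primary granule genes Mpo, Elane, Prtn3, Ctsg and Ms4a3 were followed in single cell RNA sequencing of mouse splenocytes. A sixth gene of the group, Azu1, had no row in the count tables. The 5 genes measured were rows of a table of 32285 genes. The group was chosen because Prtn3 counts were higher in the CD4 T cell gate of the PEP-WT library. Every difference between the genotypes below is thus a description and carries no test.

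Primary (azurophilic) granules are the first granules a neutrophil makes, and their proteins are made in promyelocytes and granulocyte-monocyte progenitors rather than in mature cells. Mpo encodes myeloperoxidase, which makes hypochlorous acid from hydrogen peroxide and chloride. Elane (neutrophil elastase), Prtn3 (proteinase 3) and Ctsg (cathepsin G) encode serine proteases that are stored in the same granules. Ms4a3 encodes a membrane protein of the same progenitors and is used as a marker of them.

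PEP-WT mice were C57BL/6 mice with the wild type Ptpn22 allele, which encodes the tyrosine phosphatase PEP. PEP-619WW mice were C57BL/6 mice homozygous for the amino acid substitution made by CRISPR/Cas9 that models the human autoimmunity allele of PTPN22. Both genotypes were infected with LCMV-cl13, a virus strain that persists, and spleens were taken 8 days after infection. Splenocytes of 4 to 5 mice were pooled per genotype and sorted for live CD45+ cells. The comparisons below come from 1 library per genotype without a replicate, so mouse-to-mouse spread cannot be seen. The sample labels name liver, Jurkat cells and tumor infiltrating cells, which conflicts with this description.

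Each genotype had 2 deposited runs. Run 1, used throughout, held 14821 barcodes and 77916082 UMIs (unique molecular identifiers, each counting 1 captured RNA molecule) for PEP-WT, and 8576 barcodes and 56745578 UMIs for PEP-619WW. Median UMIs per barcode were 2832 and 3293. Run 2 held 9539 PEP-WT and 11029 PEP-619WW barcodes. Both of these numbers equal the cell numbers given in the methods, which ties the description of mice, spleens and sorting by number to run 2. That description is taken over for run 1, and the relation between the runs was not given in the sources used here. Of the run 1 barcodes, 73.0% and 70.9% had a UMI of Ptprc, the gene of CD45. Ptpn22 was at 76.7 and 94.7 CPM (UMIs of a gene per 1000000 UMIs of the same barcodes), and a count of 3′ ends cannot show the substitution. Barcode sequences shared by both libraries of run 1 numbered 39, none of them among the Mpo barcodes described here. Run 1 and run 2 shared 38 in PEP-WT and 19 in PEP-619WW, so the runs of a genotype hold almost wholly different barcodes.

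Where the genes lie is given in GRCm38 by GENCODE. Prtn3 (ENSMUSG00000057729) is at chr10:79874476-79883174 on the plus strand, and Elane (ENSMUSG00000020125) follows 3072 bases further on, at chr10:79886247-79888215 on the same strand. Mpo (ENSMUSG00000009350) is at chr11:87793581-87804413 on the plus strand. Ctsg (ENSMUSG00000040314) is at chr14:56099881-56102574 on the minus strand, and Ms4a3 (ENSMUSG00000024681) at chr19:11629496-11640851 on the minus strand. All 5 are protein coding.

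Stretches before the RefSeq starts of the genes are shown because the 5 genes were found in the same barcodes. They were read from RefSeq promoters of GRCm38.p6 and cover, within the 250 bases before the RefSeq start, the longest stretch that no GENCODE exon overlaps. For Mpo, Elane and Prtn3 the RefSeq start lies inside the GENCODE gene given above, and 203, 65 and 53 of their 250 bases were in GENCODE exons. The Mpo and Elane stretches end just before the GENCODE gene. That of Prtn3 is within its gene and not upstream of it. Capitals mark AGGAAGT, a box of the kind that ETS factors such as PU.1 bind.
Mpo (chr11:87793534-87793580, plus strand): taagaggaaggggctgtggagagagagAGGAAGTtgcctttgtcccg
Elane (chr10:79886062-79886246, plus strand): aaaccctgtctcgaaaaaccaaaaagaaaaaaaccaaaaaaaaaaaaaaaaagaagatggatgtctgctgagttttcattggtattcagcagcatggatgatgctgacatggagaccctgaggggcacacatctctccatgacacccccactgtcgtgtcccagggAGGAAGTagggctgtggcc
Prtn3 (chr10:79879417-79879613, plus strand): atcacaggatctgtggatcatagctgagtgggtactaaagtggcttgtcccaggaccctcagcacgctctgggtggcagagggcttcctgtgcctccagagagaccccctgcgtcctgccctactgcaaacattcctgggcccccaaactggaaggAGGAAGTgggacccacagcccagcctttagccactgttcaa
Ctsg (chr14:56102575-56102824, minus strand): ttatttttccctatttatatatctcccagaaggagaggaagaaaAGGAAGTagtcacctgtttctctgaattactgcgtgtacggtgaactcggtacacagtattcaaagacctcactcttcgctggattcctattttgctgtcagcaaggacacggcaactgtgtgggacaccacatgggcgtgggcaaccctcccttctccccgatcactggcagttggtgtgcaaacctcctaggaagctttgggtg
Ms4a3 (chr19:11640852-11641101, minus strand): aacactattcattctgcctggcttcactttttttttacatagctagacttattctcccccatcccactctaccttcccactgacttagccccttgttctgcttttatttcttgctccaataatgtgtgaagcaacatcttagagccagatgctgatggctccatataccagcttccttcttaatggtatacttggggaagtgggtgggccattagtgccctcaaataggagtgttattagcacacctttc

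On either strand, AGGAAGT was present in the 250 bases of 4 of 5 genes, all but Ms4a3, and in 7.69% of 32851 RefSeq promoters. AACGG, the core of the box that MYB binds, was present in 2 of 5, Elane and Prtn3, and in 14.5% of promoters. In these 2 genes it lay 50 and 55 bases before the RefSeq start, outside the stretches printed. TTGCNNAA, a form of the C/EBP box, was in 0 of 5 and in 9.56% of promoters. The 3 motifs do not overlap each other in these genes, and a match of letters does not show binding.

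Most of the granule gene RNA was in very few barcodes. Barcodes with at least 3 UMIs of Mpo, called Mpo barcodes here, numbered 59 of 14821 in PEP-WT and 25 of 8576 in PEP-619WW. These shares were 0.398% (exact binomial 95% interval 0.303 to 0.513) and 0.292% (0.189 to 0.430). They held 1.69% and 1.45% of all UMIs. All intervals given here cover counting error only, and since the UMIs of 1 cell are not independent, those of UMI sums are too narrow.

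Of 3762 Mpo UMIs in the PEP-WT library, 97.0% lay in the Mpo barcodes, as the choice of barcodes makes likely. The other genes were not used in that choice. Of 3882 Ctsg UMIs, 90.3% lay there, of 2598 Elane UMIs 87.8%, of 1461 Ms4a3 UMIs 78.2% and of 6546 Prtn3 UMIs 73.9%. In the PEP-619WW library the shares were 86.5% of 2458 Ctsg UMIs, 80.7% of 1846 Elane UMIs, 73.3% of 931 Ms4a3 UMIs and 58.3% of 5069 Prtn3 UMIs. Prtn3 was the gene with the largest share of UMIs elsewhere in both libraries. All 5 genes were detected together in 52 of 59 and 22 of 25 Mpo barcodes.

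**Figure D1:**
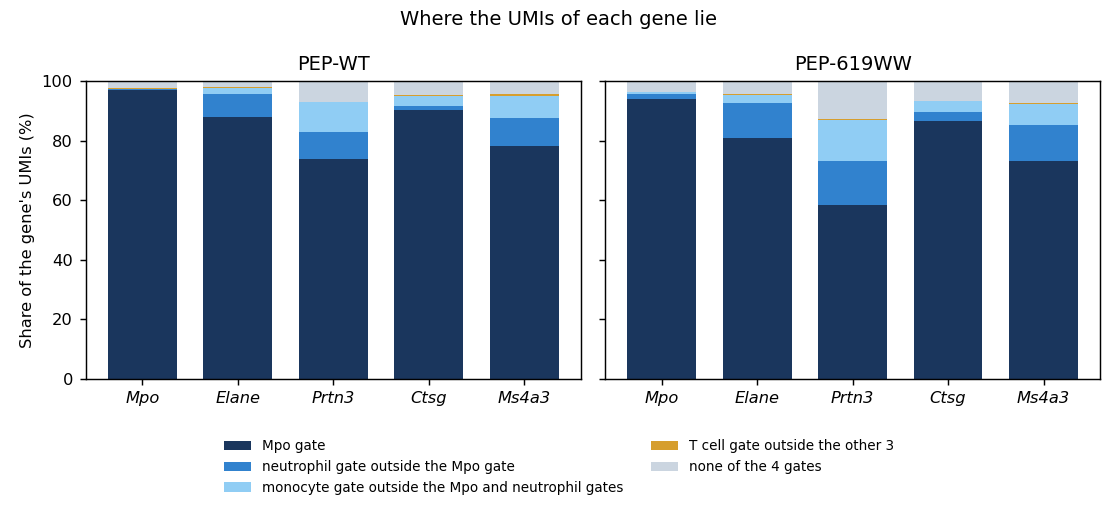
Share of the UMIs of each gene (%) by where they lie, with PEP-WT at left and PEP-619WW at right. The gates are taken in the order of the key, so that each UMI counts once, and the Mpo barcodes hold the largest part of every gene, from 97.0% for Mpo in PEP-WT down to 58.3% for Prtn3 in PEP-619WW.

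The Mpo barcodes were checked against markers of progenitors and of other cells. Cd34, a surface protein of stem and progenitor cells, was at 75.8 CPM in the PEP-WT Mpo barcodes against 0.418 CPM in all other barcodes, and at 64.2 against 0.608 CPM in PEP-619WW. Kit, the stem cell factor receptor, was at 56.1 against 5.07 CPM and at 52.1 against 4.69 CPM. Where Mpo and Elane both reached 3 UMIs, Cd34 was detected in 18 of 46 and 10 of 20 barcodes, and Kit in 22 and 14. In Mpo barcodes with Elane under 3, Cd34 was detected in 5 of 13 and 0 of 5, and Kit in 5 and 0. Of the 100 and 53 Cd34 UMIs, 23 and 20 lay in the 11 and 4 barcodes with basophil genes described below. In PEP-619WW all 20 lay in 2 barcodes near the cut of that set, with 8 and 3 Mcpt8 and 0 Prss34 UMIs. Ly6g, the surface marker of mature neutrophils, had 3 UMIs in the PEP-WT Mpo barcodes. It had 0 in those of PEP-619WW, which allows up to 3.64 CPM. The barcodes were also deep, and their median totals were 22229 and 30943 UMIs. At least 1 of 8 neutrophil markers was seen in 38 of 59 and 15 of 25 Mpo barcodes, with summed levels of 528 and 219 CPM, and at least 1 of 6 monocyte markers in 59 of 59 and 24 of 25, at 3010 and 2978 CPM. At least 1 of 4 B cell markers was seen in 29 of 59 and 20 of 25 Mpo barcodes, with summed levels of 120 and 153 CPM. At least 1 of 4 plasma cell markers was seen in 51 of 59 and 23 of 25, at 729 and 1035 CPM. T cell markers were seen in 15 of 59 and 9 of 25, at 107 and 324 CPM, and macrophage markers in 15 of 59 and 10 of 25, at 85.6 and 302 CPM. Basophil and mast cell markers were seen in 26 of 59 and 7 of 25, at 1584 and 2011 CPM, and eosinophil markers in 3 of 59 and 1 of 25, at 262 and 3.64 CPM. Droplets with more than 1 cell were not removed, and their part in these values was not tested.

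Within the Mpo barcodes the 4 genes that did not choose them had like summed levels in both genotypes. Elane was at 1728 CPM in PEP-WT and 1806 CPM in PEP-619WW (log2 ratio of PEP-619WW to PEP-WT 0.06, 95% interval -0.03 to 0.16). Prtn3 was at 3664 and 3580 CPM (-0.03, -0.10 to 0.03). Ctsg was at 2656 and 2576 CPM (-0.04, -0.12 to 0.03), and Ms4a3 at 866 and 827 CPM (-0.07, -0.21 to 0.07). Mpo itself was at 2765 CPM in PEP-WT and 1703 CPM in PEP-619WW, a log2 ratio of -0.70 (-0.79 to -0.61). None of the 5 differed by 2-fold, the size that 8.71% of 9430 genes with at least 10 UMIs passed in these barcodes. The likeness of the 4 genes depends on the gate. With at least 3 UMIs of Mpo or of Elane, a set chosen after seeing the data, all 5 were lower in PEP-619WW. The log2 ratios were then -0.23 for Elane, -0.28 for Prtn3, -0.38 for Ctsg, -0.37 for Ms4a3 and -1.08 for Mpo.

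Levels in single barcodes ranged widely and overlapped between the genotypes. In PEP-WT, Mpo ran from 3 UMIs through a median of 39 to 257, and in PEP-619WW from 3 through 50 to 155. Scaled to each barcode's total, the Mpo medians were 2041 and 1831 CPM, nearer to each other than the sums. The 5 barcodes with most Mpo held 25.8% of the Mpo UMIs of the PEP-WT gate and 49.7% of those of PEP-619WW.

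Elane was the most uneven. Its lowest, median and highest counts per barcode were 0, 16 and 234 in PEP-WT and 0, 16 and 300 in PEP-619WW. In CPM, the Elane medians were 956 and 466, although the Elane sums were close. The top 5 barcodes held 37.1% of Elane UMIs in PEP-WT and 73.9% in PEP-619WW. Prtn3 counts were 1, 73 and 333 in PEP-WT and 0, 101 and 282 in PEP-619WW. Ctsg counts were 0, 50 and 183 in PEP-WT and 0, 57 and 291 in PEP-619WW. Ms4a3 counts were 0, 15 and 65 in PEP-WT and 0, 24 and 82 in PEP-619WW. In CPM, the medians in PEP-WT and PEP-619WW were 3378 and 2944 for Prtn3, 2583 and 1877 for Ctsg, and 864 and 767 for Ms4a3. For each gene the ranges of the 2 libraries overlapped over most of their length.

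**Figure D2:**
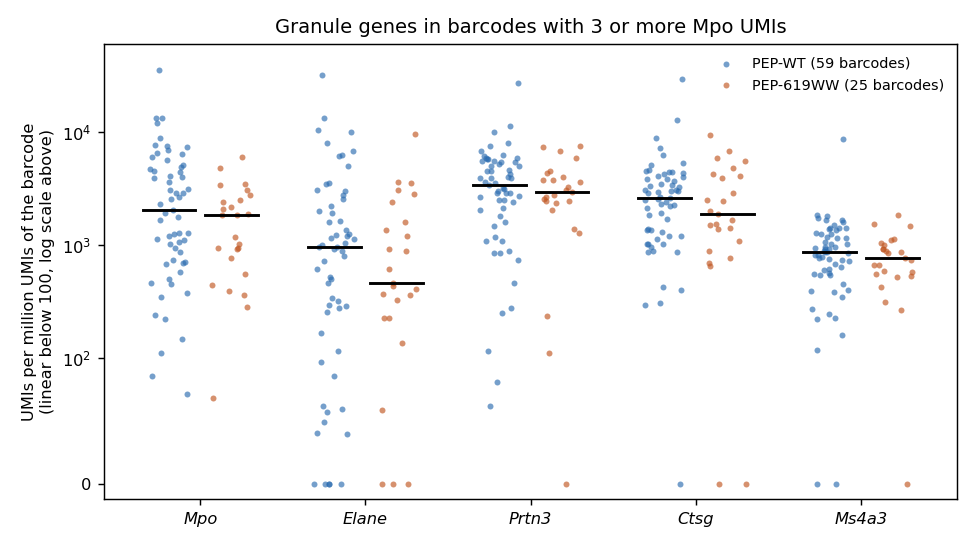
Level of each gene in every Mpo barcode, in CPM of that barcode (linear below 100, log scale above), for 59 PEP-WT and 25 PEP-619WW barcodes, with black lines at the medians. The clouds overlap for all 5 genes, and the Elane medians lie at 956 and 466.

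Across the Mpo barcodes the levels of all 10 pairs of genes were positively correlated in both libraries, to differing degrees. Spearman's rho of CPM, a description over 59 PEP-WT barcodes of 1 library that share depth differences, was 0.82 for Elane and Prtn3, the neighbors on chromosome 10. It was 0.71 for Mpo and Elane, 0.68 for Mpo and Ctsg, 0.62 for Mpo and Prtn3, 0.59 for Ctsg and Ms4a3, and lowest, at 0.23, for Elane and Ms4a3. Over 25 PEP-619WW barcodes the same 6 pairs gave 0.65, 0.34, 0.35, 0.56, 0.66 and 0.46, and the lowest rho, 0.24, was that of Elane and Ctsg.

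The edge of the gate was sparse. In PEP-WT, 2 barcodes had 2 Mpo UMIs and 4 had 3. In PEP-619WW, 8 barcodes had 2 and 2 had 3. The 8 barcodes just outside the gate in PEP-619WW together held 89 Prtn3, 39 Ctsg, 15 Elane and 15 Ms4a3 UMIs. A single barcode of 28811 UMIs gave 62 of the Prtn3, 24 of the Ctsg, 8 of the Elane and 13 of the Ms4a3 UMIs.

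Mpo and Elane marked sets of barcodes that overlapped largely but not fully. Both reached 3 UMIs in 46 PEP-WT and 20 PEP-619WW barcodes. Elane reached 3 UMIs with Mpo below 3 in 20 PEP-WT barcodes (0.135%, 0.0824 to 0.208) and 34 PEP-619WW barcodes (0.396%, 0.275 to 0.554). The intervals cover the counting of barcodes in 1 library per genotype and do not compare the genotypes. Barcodes that passed the neutrophil gate, at least 20 UMIs of S100a8 and S100a9 together, were also a larger share of that library, 10.1% against 5.44%. Mpo reached 3 with Elane below 3 in 13 PEP-WT and 5 PEP-619WW barcodes. With Elane in place of Mpo as the gate gene, the shares became 0.445% in PEP-WT and 0.630% in PEP-619WW, so that the direction of the difference in share turned. It also turned with at least 1 Mpo UMI, at 1.15% for PEP-WT and 1.25% for PEP-619WW. Over all barcodes there were 1.45 Mpo UMIs per Elane UMI in PEP-WT and 0.810 in PEP-619WW.

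The barcodes with Elane and little Mpo carried more of several myeloid genes and less of the progenitor gene Cd34 than those with both. The neutrophil gate held 13 of the 20 in PEP-WT and 18 of the 34 in PEP-619WW, and the monocyte gate (at least 5 UMIs of Lyz2, C1qa at 0) held 16 and 18. Lyz2 (lysozyme) was at 6047 and 5874 CPM, against 1072 and 730 CPM where Mpo and Elane both reached 3. Ly6c2, a surface protein of inflammatory monocytes, was at 3679 and 4619 CPM against 2495 and 2340 CPM. Csf1r, the receptor that monocytes need, was at 56.8 and 49.0 CPM against 47.0 and 43.0 CPM. Irf8, a transcription factor of the monocyte and dendritic lineages, was at 472 and 235 CPM against 368 and 358 CPM, higher in PEP-WT and lower in PEP-619WW. S100a8, which encodes a subunit of calprotectin, was at 9399 CPM in the 20 PEP-WT and 5875 CPM in the 34 PEP-619WW barcodes, against 1307 and 590 CPM where Mpo and Elane both reached 3. Chil3, a chitinase-like secreted protein, was at 4176 and 4829 CPM against 623 and 489 CPM. Camp, the cathelicidin stored in secondary granules, was at 1313 UMIs in the 20 and 957 UMIs in the 34 barcodes, against 105 and 133 UMIs where both reached 3, though it was detected in just 5 of 20 and 7 of 34 barcodes. Ngp and Ltf, further secondary granule genes, were detected in 5 and 4 of the 20 and in 12 and 4 of the 34. Cd34 was at 0 in all of these barcodes, which allows up to 6.81 CPM in PEP-WT and 4.90 CPM in PEP-619WW, and was at 65.1 and 67.0 CPM where both genes reached 3. Prtn3 was at 1190 and 1061 CPM in these barcodes, Ctsg at 259 and 232 CPM, and Ms4a3 at 277 and 189 CPM. Where both genes reached 3, Prtn3 was at 4210 and 3716 CPM, Ctsg at 2625 and 2471 CPM and Ms4a3 at 870 and 831 CPM. The 3 genes that did not define the split were thus lower without Mpo in both libraries, although Prtn3 was still seen in 20 of 20 and 33 of 34 barcodes.

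**Figure D3:**
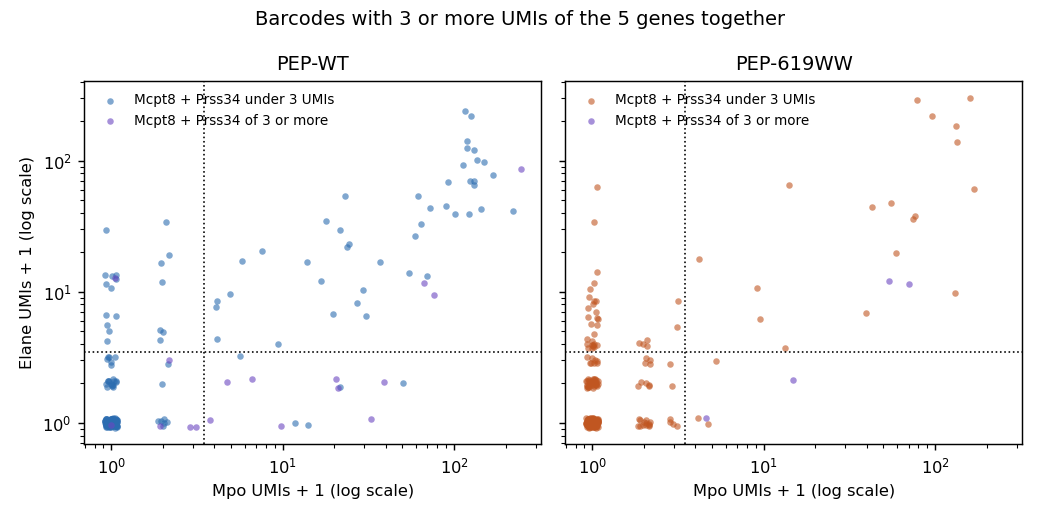
Elane against Mpo UMIs (1 added, log scales) in each barcode with at least 3 UMIs of the 5 genes together, with PEP-WT at left and PEP-619WW at right. Dotted lines mark 3 UMIs, purple points have at least 3 UMIs of Mcpt8 and Prss34 together, and the upper left field holds 20 PEP-WT and 34 PEP-619WW barcodes.

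The barcodes with Mpo and little Elane carried basophil genes. Mcpt8, a granule protease of basophils, was at 3689 CPM in the 13 PEP-WT and 18050 CPM in the 5 PEP-619WW barcodes, against 24.4 and 16.4 CPM where both genes reached 3. It was detected in 9 of the 13 and 2 of the 5. Mcpt8 and Prss34, a tryptase of basophils, together reached 3 UMIs in 11 of 59 PEP-WT and 4 of 25 PEP-619WW Mpo barcodes, a split made after the values were seen. Those that reached this cut are called barcodes with basophil genes here. The name stands for the cut, since eosinophil genes were seen among them too. Of the 11, 1 barcode held 319 UMIs of Prg2 and 1 held 21 of Epx, while the 4 had 0 of both. Prss34 itself was detected in 5 of the 11 and 2 of the 4. In the 11 PEP-WT barcodes Ctsg was at 3887 CPM and Ms4a3 at 1191 CPM, against 2417 and 803 CPM in the other 48. Elane was at 523 CPM against 1961 CPM, and 1 of the 11 barcodes gave 87 of the 112 Elane UMIs. Prtn3 was at 1532 CPM against 4077 CPM, and the same barcode gave 185 of the 328 Prtn3 UMIs. In the 4 PEP-619WW barcodes Ctsg was at 3208 CPM and Elane at 265 CPM, against 2501 and 1987 CPM in the other 21. Among Mpo barcodes, summed Ctsg was thus higher in those with basophil genes in both libraries. Ms4a3 was higher in PEP-WT and lower in PEP-619WW (739 against 837 CPM). In PEP-619WW the 2 with Prss34 had 115 and 53 Ctsg UMIs of 17072 and 8944 in all. Those with 8 and 3 Mcpt8 and 0 Prss34 UMIs had 57 and 53 of 33903 and 26737. The higher Ctsg of PEP-619WW thus rests on the 2 with Prss34. Elane was lower in both libraries. Nothing is read from this, since the basophil genes were first seen in barcodes chosen for low Elane. Fcer1a, a chain of the IgE receptor, was at 509 and 485 CPM in the barcodes with basophil genes. It had 0 UMIs in the other Mpo barcodes, which allows up to 2.71 and 4.06 CPM. Outside the Mpo barcodes, 9 PEP-WT and 0 PEP-619WW barcodes had at least 20 UMIs of Mcpt8 and Prss34 together. In these 9, Mcpt8 was at 10927 CPM, while Ctsg was at 1467 CPM, Ms4a3 at 193 CPM, Elane at 226 CPM and Prtn3 at 161 CPM. These 4 levels were below those of the 48 PEP-WT Mpo barcodes under the cut. The 48 were not free of basophil genes, since Mcpt8 had 11 UMIs in 10 of them, Cpa3 18 in 5 and Gata2 8 in 4.

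The genotype ratios were also taken within these sets of barcodes. In the 11 and 4 with basophil genes the log2 ratio was -0.65 for Mpo, -0.98 for Elane, 0.53 for Prtn3, -0.28 for Ctsg and -0.69 for Ms4a3. A single PEP-WT barcode, with 7 Mcpt8 and 0 Prss34 UMIs, gave 257 of the 531 Mpo, 87 of the 112 Elane and 185 of the 328 Prtn3 UMIs. In PEP-619WW, barcodes with 8 and 3 Mcpt8 and 0 Prss34 UMIs gave 86 and 101 of the 192 Prtn3 UMIs. The Mpo, Elane and Prtn3 ratios of this set thus rest on few barcodes near the cut, and nothing is read from them. In the other 48 and 21 Mpo barcodes the log2 ratio was -0.72 for Mpo, 0.02 for Elane, -0.12 for Prtn3, 0.05 for Ctsg and 0.06 for Ms4a3. The signs of Ctsg and Ms4a3 differed from those in all Mpo barcodes, but their intervals held 0 in both sets. The interval of Prtn3 (-0.19 to -0.06) did not hold 0. Nothing is read from it, since it covers counting error only and the split was made after the values were seen.

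**Figure D4:**
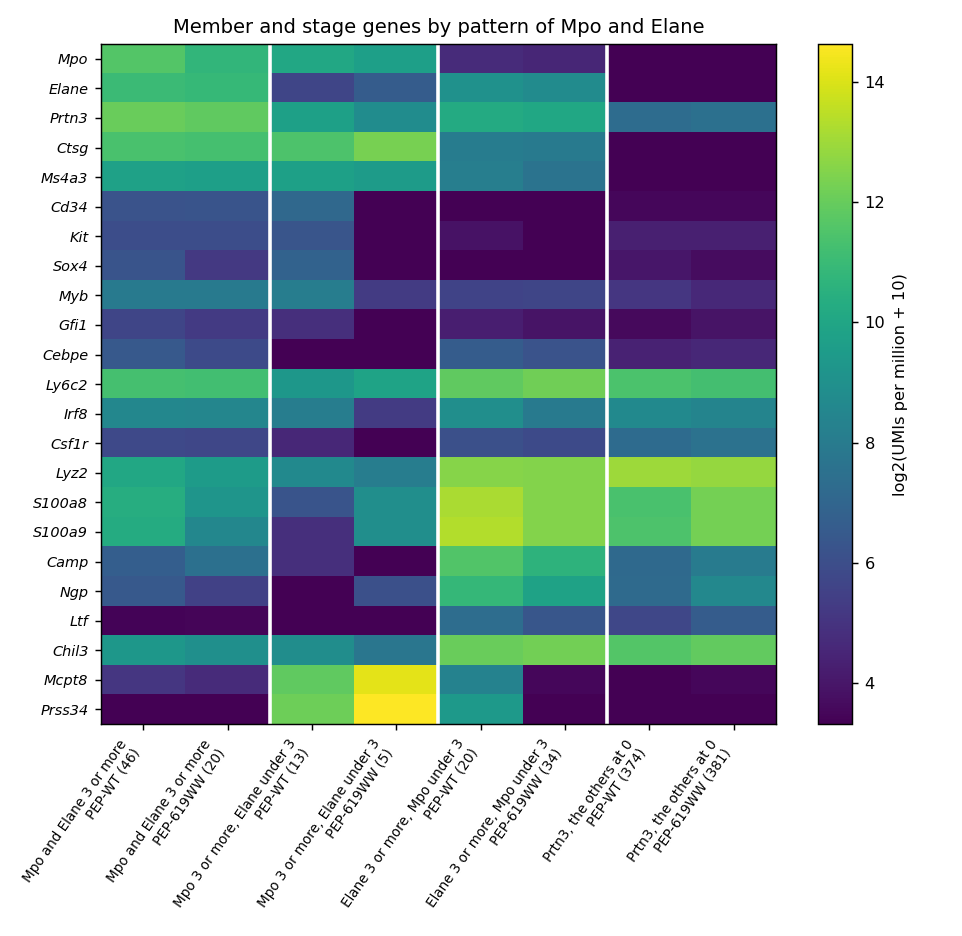
Levels of the 5 genes and of stage and lineage genes, as log2 of CPM plus 10, in barcodes grouped by Mpo and Elane, with the number of barcodes of each library in parentheses. Cd34 is dark where Elane stands without Mpo, S100a8, Camp and Chil3 are bright there, and Mcpt8 and Prss34 are bright where Mpo stands without Elane.

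Genes with the pattern most like Mpo were taken as those with the largest share of their UMIs in the Mpo barcodes, by the lower of both libraries, among 12468 genes with at least 100 UMIs over both libraries. The first 3 of them were Ctsg, Elane and Ms4a3, and Prtn3 was the sixth. Cd34 was the fourth, with 75.8% of 132 PEP-WT and 60.9% of 87 PEP-619WW UMIs. Prss57, a further serine protease of granulocytes, had 61.9% and 50.8%. The basophil and mast cell genes Mcpt8, Prss34, Cpa3 and Fcer1a were also among the 15 genes named by this rule, with 42.5% to 98.2% of their UMIs there.

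Other genes of the granule program were taken from 4 lists. Of 17 genes of protease activation and granule cargo, 14 had at least 20 UMIs in the Mpo barcodes, and 6 of these were at least 2-fold higher there than in all other barcodes in both libraries. Over all 7999 genes with at least 20 UMIs, 12.7% were. The 6 included Prss57 (94.3-fold and 70.0-fold), Cd63, a membrane protein of granules (16.5-fold and 11.1-fold), and Plac8 (3.18-fold and 3.12-fold). Ctsc, the dipeptidyl peptidase that activates the granule proteases, was 1.66-fold and 1.37-fold higher. Slpi, an inhibitor of elastase, was the gene of this list at least 2-fold lower in both libraries, by 4.39-fold and 3.83-fold, and 4.04% of all genes were that much lower.

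Of 19 early granulocyte and progenitor genes, 18 were counted, and 11 were at least 2-fold higher in the Mpo barcodes in both libraries. Mcpt8 is one of the 11, and 805 of its 816 and 627 of its 629 UMIs there lay in the 11 and 4 barcodes with basophil genes. Myb, a transcription factor of progenitors, was 11.2-fold and 13.4-fold higher, Cebpa, which directs the granulocyte and monocyte lineages, 9.53-fold and 6.46-fold, and Gfi1, a repressor needed for neutrophils, 6.34-fold and 2.91-fold. Of 15 genes listed with secondary and tertiary granules, which are made later, 8 were counted, 0 were higher and 4 were lower. The other 7 had under 20 UMIs in the Mpo barcodes, so the filter removed genes that are low there, and 4 of 8 is no share of the list. Among those 7, Ltf (lactoferrin) had 1 UMI in each library's Mpo barcodes, at 0.758 and 1.21 CPM against 63.7 and 127 CPM in all other barcodes. Of the 4, Ngp was 3.45-fold and 17.4-fold lower and S100a9 2.68-fold and 11.9-fold lower. S100a8 was also among the 4. It and S100a9 encode the subunits of calprotectin, so the 4 are not all granule genes. Of 6 proliferation genes 3 were higher, with Stmn1 3.31-fold and 4.46-fold higher. Mki67, another of the 6, was 1.08-fold lower in PEP-WT and 1.34-fold higher in PEP-619WW.

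Between the genotypes, in the Mpo barcodes, few genes of these lists differed by 2-fold. Over all 7999 genes, 2.71% were at least 2-fold higher and 3.24% lower in PEP-619WW, with a median log2 ratio of -0.03. Of the granule cargo genes, 0 were higher and 1 lower, Hexa, a lysosomal hexosaminidase (160 and 77.6 CPM, log2 -1.04). Of the early genes 1 was lower, Sox4, a progenitor transcription factor (73.5 and 25.5 CPM, log2 -1.53). Of the genes listed with late granules 2 were lower, Mmp8 and the calprotectin gene S100a9 (log2 -3.91 and -1.46), of which Mmp8 rests on 24 and 1 UMIs. Once barcodes with a single Mpo UMI were taken in, both turned to higher in PEP-619WW (log2 1.59 for Mmp8 and 0.35 for S100a9). None of the proliferation genes differed by 2-fold. The median log2 ratios of the 4 lists, in this order, were -0.17, -0.25, -0.38 and 0.27.

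Outside the Mpo barcodes the genes were measured in cells gated by other genes. Barcodes with at least 20 UMIs of S100a8 and S100a9 together, called neutrophil barcodes, numbered 806 in PEP-WT and 864 in PEP-619WW. At least 1 of 8 neutrophil markers was seen in 97.1% and 98.1% of them, with summed levels of 16092 and 26767 CPM. Plasma cell markers were also seen in 505 of 806 and 648 of 864, and their part in the values was not tested. Barcodes with at least 5 UMIs of Lyz2 (lysozyme) and none of C1qa, called monocyte barcodes, numbered 1069 and 838. At least 1 of 6 monocyte markers was seen in 96.4% and 95.6% of them, but the summed level of these, 4758 and 3889 CPM, was below that of the 8 neutrophil markers, 9174 and 18945 CPM. The gate's name thus stands for its rule and not for a pure cell type. The gates overlap, since 444 PEP-WT and 464 PEP-619WW barcodes were in both.

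In neutrophil barcodes Mpo was at 133 CPM in PEP-WT and 64.6 CPM in PEP-619WW (log2 ratio -1.04, -1.22 to -0.85). It was the 1 gene of 5 that was lower by 2-fold, as 5.27% of 12008 genes were. Elane (167 and 168 CPM) and Prtn3 (299 and 289 CPM) had log2 ratios of 0.01 and -0.05, Ctsg -0.45 and Ms4a3 -0.24. These sums came from few cells. Mpo was detected in 18 of 806 and 24 of 864 neutrophil barcodes, and 10 and 5 of these barcodes were also Mpo barcodes. All but 9 of the 731 and 24 of the 354 Mpo UMIs lay in these barcodes. The gate leaves at most 2 Mpo UMIs in any other barcode, so no ratio is read from the rest.

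In monocyte barcodes Mpo was at 103 and 55.9 CPM (log2 -0.88) and Ms4a3 at 79.2 and 53.5 CPM (-0.56). Elane was at 101 and 92.8 CPM (-0.13), Prtn3 at 360 and 354 CPM (-0.02) and Ctsg at 148 and 118 CPM (-0.32). None of the 5 passed 2-fold, where 6.62% of 12336 genes did. Of the monocyte barcodes, 19 and 8 were Mpo barcodes, and all but 15 of the 806 and 17 of the 352 Mpo UMIs lay in them.

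Prtn3 reached beyond these cells. It was detected in 541 PEP-WT barcodes and 565 PEP-619WW barcodes, 3.65% and 6.59% of each library. In 374 and 381 of them the other 4 genes were at 0, which is 2.52% (2.28 to 2.79) and 4.44% (4.02 to 4.90) of all barcodes. The make-up of the libraries moved with these shares, since monocyte barcodes were 7.21% of all in PEP-WT and 9.77% in PEP-619WW, beside the larger neutrophil share given above. Its part in them was not tested. These Prtn3 barcodes carried Lyz2 at 8114 and 7280 CPM and Csf1r at 146 and 179 CPM. Of them, 46.8% and 44.6% were in the monocyte gate, and 21.7% and 30.2% in the neutrophil gate. Their median depth was 7341 and 8324 UMIs, above that of all barcodes.

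To set the libraries at the same depth, each barcode was thinned to 1000 UMIs, leaving out 978 PEP-WT and 1173 PEP-619WW barcodes with fewer. The share of barcodes with Prtn3 was then 1.32% (1.14 to 1.53) in PEP-WT and 3.03% (2.65 to 3.44) in PEP-619WW. In monocyte barcodes the shares were 8.77% (7.13 to 10.6) and 13.1% (10.8 to 15.6), and in neutrophil barcodes 5.03% (3.60 to 6.81) and 9.79% (7.83 to 12.1). B cell barcodes (Cd79a present, Cd3e and Lyz2 at 0), which should lack the gene, had 0.302% (0.185 to 0.466) and 0.371% (0.185 to 0.662). T cell barcodes had 0.460% (0.199 to 0.905) and 0.305% (0.0629 to 0.888). The lymphocyte shares rest on 20 and 11 B cell and 8 and 3 T cell barcodes with Prtn3, too few to compare the libraries. In both myeloid gates the share was higher in the PEP-619WW library, a description of 1 library per genotype. The 2 gates share 444 of 806 neutrophil and 1069 monocyte barcodes in PEP-WT, and 464 of 864 and 838 in PEP-619WW, so they are not separate observations and their make-up differs between the libraries. Not thinned, Prtn3 was seen in 267 of 1069 and 247 of 838 monocyte barcodes, and in 126 of 806 and 185 of 864 neutrophil barcodes. The summed Prtn3 levels differed by 1.04-fold in neutrophil and 1.02-fold in monocyte barcodes, but the Mpo barcodes weighed heavily in them. Outside the Mpo barcodes Prtn3 was at 115 and 144 CPM in neutrophil barcodes. In monocyte barcodes outside the Mpo and neutrophil gates it was at 139 and 222 CPM. Leaving out barcodes by their Mpo keeps the 20 and 34 barcodes with Elane and little Mpo, which held 524 and 650 Prtn3 UMIs, so no ratio is read from these levels.

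T cell barcodes (Cd3e present, Lyz2 at 0) served as the background. They numbered 1774 in PEP-WT and 1013 in PEP-619WW. All 5 genes were lower by 2-fold in PEP-619WW, where 3.44% of 12727 genes were. Nothing is read from this count, since 268 PEP-WT and 188 PEP-619WW barcodes are shared with the CD4 T cell gate in which the genes were picked. The sums were 282 and 4 UMIs for Mpo, 92 and 1 for Elane, 208 and 18 for Prtn3, 209 and 5 for Ctsg, and 72 and 3 for Ms4a3. Just 3 of the 1774 PEP-WT barcodes were Mpo barcodes, and these held 269 of the 282 Mpo, 88 of the 92 Elane, 192 of the 208 Prtn3, 205 of the 209 Ctsg and 65 of the 72 Ms4a3 UMIs. A single one of them, which is also in the CD4 T cell gate, gave 257 of the Mpo and 185 of the Prtn3 UMIs. In the other 1771 barcodes the 5 genes lay between 0.368 and 1.47 CPM, and in the 1013 PEP-619WW barcodes between 0.111 and 2.00 CPM. The Prtn3 intervals of these 2 groups, 0.842 to 2.39 and 1.19 to 3.16 CPM, overlap.

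The CD4 T cell gate (Cd3e and Cd4 present, under 10 UMIs of Mt2), in which the genes were picked, held 361 PEP-WT and 257 PEP-619WW barcodes. Prtn3 was at 338 UMIs (102 CPM) in PEP-WT and 40 UMIs (15.3 CPM) in PEP-619WW, a log2 ratio of -2.74. Mpo had 501 and 0 UMIs, Elane 130 and 8, Ctsg 266 and 1, and Ms4a3 80 and 3. Again all 5 were lower by 2-fold, where 3.87% of 11262 genes were, and nothing is read from this count because the gate chose the genes.

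In the CD4 T cell gate, 2 of the 361 PEP-WT barcodes held 321 of the 338 Prtn3 UMIs. The first had 33855 UMIs in all, with 185 of Prtn3, 257 of Mpo, 87 of Elane, 146 of Ctsg and 48 of Ms4a3, beside 1 of Cd3e and 1 of Cd4. The second had 34725 UMIs, with 136 of Prtn3, 240 of Mpo, 43 of Elane, 120 of Ctsg and 32 of Ms4a3, and again 1 of Cd3e and 1 of Cd4. The first was also among the 11 barcodes counted above with basophil genes, with 7 UMIs of Mcpt8 and 0 of Prss34. Kit was present in both, with 3 and 5 UMIs, and Cd79a, a B cell gene, had 13 UMIs in the second. In PEP-WT these are also the 2 barcodes with most Mpo UMIs, and no PEP-619WW barcode of the CD4 gate reached 3 Mpo UMIs.

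Without the Mpo barcodes, Prtn3 in the CD4 gate was at 17 UMIs in 359 PEP-WT barcodes and 40 UMIs in 257 PEP-619WW barcodes. This is 5.25 CPM (3.06 to 8.40) against 15.3 CPM (10.9 to 20.8), a log2 ratio of 1.54 (0.69 to 2.45), so that the direction turned. No genotype difference is read from this ratio, because the gate chose the genes. Leaving out barcodes by their Mpo also took 2 from PEP-WT and 0 from PEP-619WW. The 40 UMIs lay in 10 barcodes, of which 3 held 13, 12 and 7. The barcode with 13 had 73 UMIs of Lyz2, and the barcode with 12 had 146 of S100a8, 200 of S100a9 and 111 of Camp. The barcode with 7 had 0 UMIs of Lyz2, 1 of S100a8 and 1 of S100a9, beside 6 of Cd3e and 4 of Cd4. Among the 17 UMIs of PEP-WT, 1 barcode with 57 Lyz2 UMIs held 6 and 1 with 251 Lyz2 UMIs held 4. Elane was at 0 UMIs in the 359 PEP-WT barcodes, which allows up to 0.926 CPM, and Ctsg and Ms4a3 were at 0 there too. With at least 2 UMIs of Cd3e required, the ratio was 0.80 (-0.15 to 1.80), and with Lyz2 at 0, which kept 1 of the 2 barcodes, it was -4.37.

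**Figure D5:**
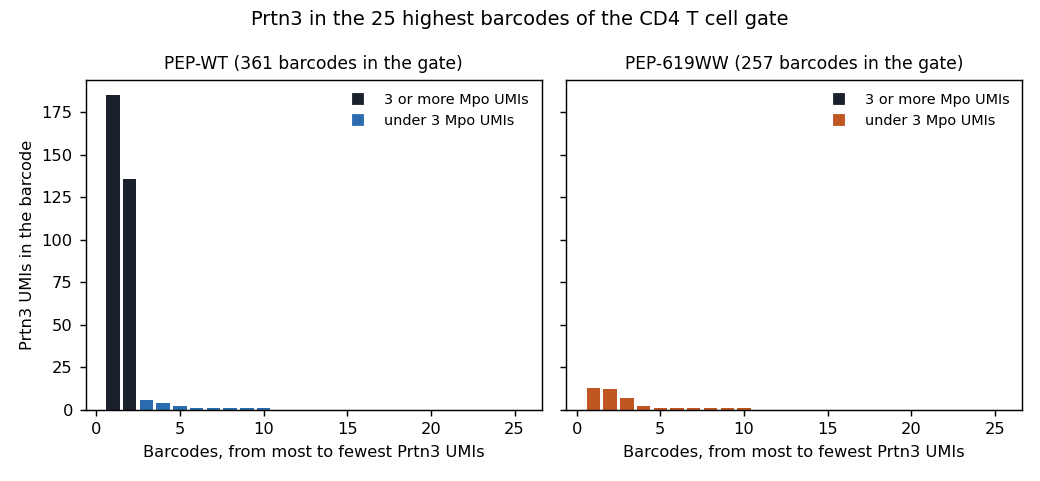
Prtn3 UMIs in the 25 barcodes of the CD4 T cell gate with most of them, for PEP-WT (361 barcodes) and PEP-619WW (257 barcodes), with barcodes of at least 3 Mpo UMIs in black. The 2 black bars, at 185 and 136, hold 321 of the 338 PEP-WT UMIs, and the highest PEP-619WW bar is at 13.

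Single barcodes also set the levels elsewhere. Among barcodes with at least 5 UMIs of C1qa, a complement gene of macrophages, Elane was at 15 UMIs in 268 PEP-WT barcodes and 276 in 208 PEP-619WW barcodes, and 1 PEP-619WW barcode held 272 of them. In B cell barcodes Mpo was at 174 UMIs in PEP-WT, of which 1 barcode held 128, and at 28 UMIs in PEP-619WW, of which 1 held 13.

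Over all barcodes, Mpo was at 48.3 CPM in PEP-WT and 26.3 CPM in PEP-619WW (log2 ratio -0.87, -0.96 to -0.79). Elane was at 33.3 and 32.5 CPM (-0.04), Prtn3 at 84.0 and 89.3 CPM (0.09), Ctsg at 49.8 and 43.3 CPM (-0.20) and Ms4a3 at 18.8 and 16.4 CPM (-0.19). Since 97.0% and 94.0% of the Mpo UMIs lay in the Mpo barcodes, this ratio and those of Mpo in the neutrophil and monocyte gates rest on the same few barcodes and are not separate observations. The level of a whole library mixes how many cells carry the genes and how much RNA each carries.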

How the data were processed

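Single cell 3′ libraries (10x Genomics) were sequenced, with 2 deposited runs per genotype and 1 library per genotype in each run. The methods describe the cells as pooled, sorted splenocytes. The authors deposited UMI counts per gene and barcode, whole numbers that are not normalized. Per the submitters' processing notes they were made with Cell Ranger (6.0.0) on mm10, while the methods give another version. Genes were matched by identifier to symbols for 32158 of 32285 rows.

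The gates required the UMIs named in the text, and all deposited barcodes entered. No filter on genes or mitochondrial share was applied, and no doublet caller was run. UMIs were summed per library and gate and divided by the gate's total to give CPM. UMIs are counted once per molecule and were not divided by length, so levels are compared between samples and cells of 1 gene. With 1 library per genotype no test was made. Exact Poisson, binomial and conditional intervals at 95% cover counting error only. Where 1 count was 0 the limit used 3 counts. Ratios over all genes used genes with at least 10 UMIs over both libraries and added 0.5 to both counts. List genes needed at least 20 UMIs in the Mpo barcodes. The genes most like Mpo were the 15 of the rule in the text. The ratio script was tested on simulated data. The genes, gates and lists were chosen with earlier results of these data known. Scripts used python (3.11.15), numpy (2.4.6), scipy (1.17.1) and matplotlib (3.10.9).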

Additional observations from a re-analysis of the deposited data

Results flagged for a closer look

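Signal of the 5 genes in run 2, which no comparison above uses, exceeded the limit that a count of 0 allows (3 UMIs) for 5 gene and library pairs. Prtn3 had 338 UMIs in 181 barcodes of PEP-WT (4.79 CPM) and 294 UMIs in 233 barcodes of PEP-619WW (5.30 CPM). Lyz2 was present in 180 of these 181 and 228 of these 233 barcodes, and C1qa in 147 and 77. The PEP-619WW library of run 2 also held 4 Mpo, 6 Ctsg and 14 Ms4a3 UMIs, with at most 2 in 1 barcode. No barcode of run 2 reached 3 Mpo UMIs, and 735 PEP-WT and 99 PEP-619WW barcodes of run 2 carried at least 2 of 4 melanocyte genes. Of the 9539 PEP-WT barcodes of run 2, 4837 had at least 5 UMIs of C1qa and 2 were B cell barcodes. In run 1 these were 268 and 6809 of 14821, so the make-up of the runs differed.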

How the results depend on the processing

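With 1 library per genotype, no alternative carries a test, and sampling of mice and libraries is outside every interval. No paired analysis was possible because each genotype is 1 library in run 1, and no replicate could be left out. All values are log2 ratios of PEP-619WW to PEP-WT, and the cause of a change was not tested unless stated. Of 69 alternatives to the 6 main ratios, 57 kept the sign.
The summed level of the 5 genes in neutrophil barcodes (-0.24) was -0.83 in run 2, -0.13 with median-of-ratios scaling, -0.84 without barcodes with B or T cell UMIs, 0.36 with barcodes of 1 gate only, -0.37 without the top barcode, -0.32 and -0.35 with at least 10 and 50 UMIs of S100a8 and S100a9, and -2.86 with Ly6g as the gate gene. The run 2 value rests on 21 and 22 UMIs, 21 and 20 of them Prtn3, with an interval of -1.76 to 0.11. Without the Mpo barcodes, an alternative chosen after seeing the data, the summed level was 0.24. Mpo in that gate was 4.08 with 1 gate only and 1.42 without the Mpo barcodes, where the gate leaves at most 2 Mpo UMIs in a barcode and so bears on the ratio.
The ratio of the shares of Mpo barcodes (-0.45) was -1.85 when thinned to 1000 UMIs, 0.11 with at least 1 Mpo UMI, 0.50 with Elane in place of Mpo and, chosen after seeing the data, 0.37 with Mpo or Elane. Their summed level (-0.15) was -0.65 when thinned, -0.11 without B or T cell UMIs, -0.084 with 1 gate only, -0.24 without the top barcode, -0.26 with at least 10 Mpo UMIs, -0.53 with Elane and -0.45 with either gene. Mmp8 was 1.59 with at least 1 Mpo UMI, and S100a9 was 0.35 with it and 1.25 with 1 gate only.
In monocyte barcodes (-0.23) the sum was -0.74 in run 2, -0.014 when thinned, -0.14 with median-of-ratios scaling, -0.11 without B or T cell UMIs, 0.50 with 1 gate only, -0.38 without the top barcode, 0.038 with S100a8 and S100a9 under 20 and 0.36 without the Mpo barcodes. The run 2 value rests on 71 and 193 UMIs, 71 and 180 of them Prtn3.
In T cell barcodes (-4.52) it was -1.67 when thinned, -5.73 without B cell UMIs, -0.24 with 1 gate only, -2.26 without the top barcode, 0.56 with any Lyz2 and -0.23 without the Mpo barcodes. There, with any Lyz2, Ctsg was 0.28, Elane 1.42, Ms4a3 0.45 and Prtn3 0.88. With 1 gate only, and also without the Mpo barcodes, Ctsg was 0.59 and Prtn3 0.44.
Prtn3 in the CD4 gate (-2.74) was -0.20 when thinned, 1.43 with 1 gate only, -2.12 without the top barcode, -4.37 with Lyz2 at 0, 0.80 with at least 2 Cd3e UMIs and 1.54 without the Mpo barcodes. The sum of the 5 genes there was 1.19 with 1 gate only, 0.76 with at least 2 Cd3e UMIs and 1.62 without the Mpo barcodes, where Elane was at least 1.72. These reversals come with the removal of the 2 Mpo barcodes.
Genes past 2-fold numbered 950 in neutrophil, 821 in Mpo, 817 in monocyte, 793 in T cell and 865 in CD4 barcodes. With no filter on low counts they numbered 4220, 2649, 4025, 3977 and 3833, and with at least 50 UMIs 271, 135, 235, 198 and 218. Run 2 gave no value for the Mpo barcodes, since it had none, nor for T cell barcodes, which held 0 and 2 UMIs of the 5 genes.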
